A study of Homo sapiens with 6 samples.

Results

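The 9 genes PROC, PROS1, SERPINC1, SERPIND1, TFPI, PLG, SERPINF2, CPB2 and PLAU encode proteins that restrain blood clotting or that control the removal of clots. They were selected by symbol from the RNA-seq table of a lenvatinib resistance study, and all 9 were found among its 19974 annotated genes and passed the filter on low counts. Huh7 is a human hepatocellular carcinoma cell line, and lenvatinib is a multikinase inhibitor used against this cancer. The Huh7 parental (Huh7 P) cells carried the label WT and had received no treatment. The lenvatinib resistant (Huh7 LR) cells, also labelled WT, were derived from them under continuous lenvatinib, raised from 1 to 20 μM over 10 months, and were then kept in medium with 20 μM of the drug. Each line was represented by 3 libraries. Since Huh7 LR is a single derived line, the replicates give the spread between cultures of that line and not between independent selections, and the effects of resistance, of the drug itself and of separate culture cannot be told apart.

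Most of these proteins are made by the hepatocyte and secreted into plasma. Antithrombin and heparin cofactor II trap thrombin, tissue factor pathway inhibitor blocks the first step of coagulation, and activated protein C, helped by protein S, cleaves the cofactors that drive thrombin formation. Clots are dissolved by plasmin, which urokinase releases from plasminogen, while α2-antiplasmin and the carboxypeptidase encoded by CPB2 hold plasmin back.

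The libraries held between 62738937 and 71427573 counts, and the ranges of the lines overlapped. Values are given as CPM, counts scaled to library size with TMM factors, and differences as the log2 fold change (log2FC) of Huh7 LR against Huh7 P with its standard error (SE). Each adjusted p of such a difference comes from the quasi-likelihood test of edgeR, corrected by the method of Benjamini and Hochberg over 17531 genes and loci. Below 0.05 a gene counts as higher or lower, and as past 2-fold where the adjusted p is below 0.001 and log2FC beyond 1 in size. All 6 hepatocyte markers (ALB, APOA1, APOB, TTR, SERPINA1 and HNF4A) were detected, 3 of them were higher and 0 lower in Huh7 LR (over everything tested, 23.3% and 22.4%), and their summed level was 20526 to 22259 CPM in Huh7 P and 29902 to 32418 CPM in Huh7 LR. Most of that rise was ALB, with means of 12951 and 21566 CPM, and APOB, SERPINA1 and HNF4A did not pass. HNF4A itself, which encodes a transcription factor of liver genes, gave a log2FC of -0.06 on counts (adjusted p = 0.608). Its level depended on the unit. Mean CPM went from 325 to 312, whereas the mean of the authors' FPKM values, also scaled for length, went from 61.5 to 83.0. The Huh7 P libraries held 62.5, 66.3 and 55.6 FPKM. Huh7 LR replicate 1 lay below all of them at 51.0, while replicates 2 and 3 lay above them at 102 and 96.4. The cause of this discrepancy was not tested.

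Of the 9 genes, 6 were higher in Huh7 LR (PROS1, SERPINC1, SERPIND1, PLG, SERPINF2 and PLAU), 2 were lower (TFPI and CPB2), and PROC did not pass. Over all genes and loci tested, 23.3% were higher and 22.4% lower by the same rule, 45.7% in all. SERPIND1, PLG and PLAU were higher past 2-fold, against 4.43% of all genes and loci, and 0 of the 9 were lower past 2-fold, against 1.78%, or 6.21% in either direction. The median log2FC of the 9 genes was 0.31, and that of everything tested was 0.00461. All Huh7 LR libraries lay above all Huh7 P libraries on the CPM scale for 6 of the 9 genes and below them for 2, against 28.2% and 27.7% of everything tested (55.9% in all). The shares of higher genes were thus above the background, which is given as a description because the 9 genes were not chosen blind to these data. As these are bulk RNA samples, a change in RNA per cell and a change in the share of cells that express a gene cannot be told apart.

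**Figure D1:**
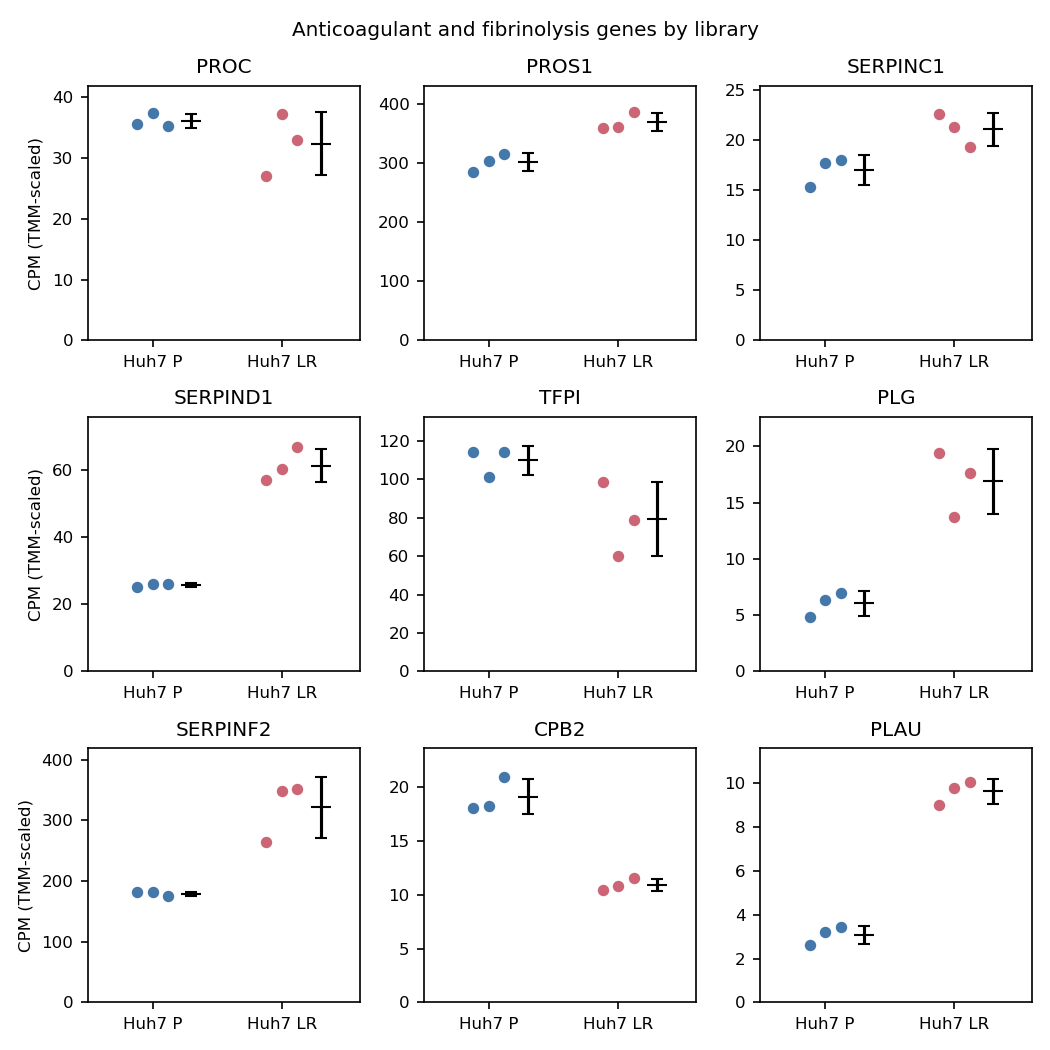
TMM-scaled CPM (vertical axes, from 0) of the 9 genes in each of the 3 Huh7 P and 3 Huh7 LR libraries; points are libraries, and the black bars are the mean ± SD of each line. The libraries of the lines overlap for PROC, lie lower in Huh7 LR for TFPI and CPB2, and lie higher in Huh7 LR for the other 6 genes.

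Both genes of thrombin inhibitors were higher in Huh7 LR, with a 95% interval of log2FC of 1.08 to 1.42 for heparin cofactor II and of 0.09 to 0.53 for antithrombin. Coordinates are those of GRCh38 in GENCODE release 29. SERPIND1 (ENSG00000099937, chromosome 22, 20773879 to 20787720, plus strand), which encodes heparin cofactor II, had 25.0, 26.1 and 26.1 CPM in Huh7 P and 56.7, 60.1 and 66.7 CPM in Huh7 LR. The lowest Huh7 LR library was thus more than double any Huh7 P library. The means were 25.7 ± 0.631 and 61.2 ± 5.03 CPM (SD, n = 3), with a log2FC of 1.25 (SE 0.08, adjusted p = 9.74e-07). SERPINC1 (ENSG00000117601, chromosome 1, 173903804 to 173917378, minus strand), which encodes antithrombin, the main plasma inhibitor of thrombin and factor Xa, had 15.3, 17.7 and 18.0 CPM in Huh7 P and 22.6, 21.3 and 19.4 CPM in Huh7 LR. These libraries did not overlap, although the nearest of the lines lay close together. The log2FC of SERPINC1 was 0.31 (SE 0.10, adjusted p = 0.0237). This call was lost without Huh7 P replicate 1 (adjusted p = 0.105), Huh7 P replicate 2 (0.0599) or Huh7 LR replicate 1 (0.0696). Per library, the ratio of SERPINC1 to SERPIND1 on the length-scaled FPKM values was 0.933, 1.03 and 1.05 in Huh7 P, against 0.612, 0.540 and 0.408 in Huh7 LR. The ratios of the lines did not overlap, and their log2 means differed by -0.97 (two-sided exact permutation test, p = 0.1, the smallest that 3 against 3 libraries allow; 0.133 after Benjamini-Hochberg adjustment over 4 ratios).

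SERPIND1 lies within PI4KA, a lipid kinase gene on the opposite strand, with no exon base in common by GENCODE release 29. PI4KA was also higher, with a log2FC of 0.48 (adjusted p = 4.01e-04). Within 500 kb of SERPIND1, 7 of the 16 other annotated genes tested were higher and 0 lower, with a median log2FC of 0.38, against 23.3% and 22.4% of everything tested. Near SERPINF2, 5 of 19 were higher and 3 lower, near PLAU 5 of 16 and 3, and near each of the other 6 genes 9 or fewer were tested, with at most 2 higher and 2 lower. For these 8 genes, the median lay between -0.23 and 0.03, apart from TFPI, which had a single tested neighbour (0.86). Whether the neighbourhood has a part in the level of SERPIND1 was not tested.

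The genes of protein C and its cofactor had log2FCs under 0.5 in size. PROS1 (ENSG00000184500, chromosome 3, 93873033 to 93980003, minus strand), which encodes protein S, a vitamin K-dependent cofactor of activated protein C, had 286, 303 and 316 CPM in Huh7 P and 361, 362 and 387 CPM in Huh7 LR. All Huh7 LR libraries were above all Huh7 P libraries, by a margin small beside the level itself. Its log2FC was 0.29 (SE 0.07, adjusted p = 0.00529). PROC (ENSG00000115718, chromosome 2, 127418427 to 127429246, plus strand), which encodes the protease zymogen protein C, had 35.5, 37.3 and 35.3 CPM in Huh7 P and 27.0, 37.2 and 32.9 CPM in Huh7 LR. Huh7 LR replicate 1 was the lowest of the 6 and replicate 2 lay within the Huh7 P range. The log2FC of -0.16 (95% interval -0.39 to 0.08, adjusted p = 0.259) did not pass. It passed in a single alternative, without Huh7 LR replicate 2 (-0.26, adjusted p = 0.0391). The FPKM ratio of PROC to PROS1 was 0.290, 0.277 and 0.253 in Huh7 P, against 0.168, 0.227 and 0.195 in Huh7 LR. It was lower in every Huh7 LR library, a log2 difference of -0.48 (two-sided exact permutation test, p = 0.1, again the smallest possible).

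TFPI (ENSG00000003436, chromosome 2, 187464230 to 187565760, minus strand) encodes tissue factor pathway inhibitor, a Kunitz-type inhibitor of factor Xa and of the tissue factor complex, which endothelial cells also make. It had 114, 101 and 114 CPM in Huh7 P and 98.8, 60.1 and 78.6 CPM in Huh7 LR. The lines did not overlap, but Huh7 LR replicate 1 was within a few CPM of the lowest Huh7 P library. The log2FC was -0.47 (SE 0.14, adjusted p = 0.0194). The result depended on the unit. On the deposited FPKM values, TFPI was 36.7, 33.0 and 36.6 in Huh7 P, against 38.3, 22.5 and 28.1 in Huh7 LR, so that the lines overlapped and the highest value was a Huh7 LR library. With limma-trend on log2(FPKM + 0.1), the log2FC was -0.29 (adjusted p = 0.159) and the call was lost. It was also lost in edgeR's test without Huh7 P replicate 1 (adjusted p = 0.0645), Huh7 P replicate 3 (0.0688) or Huh7 LR replicate 3 (0.0577).

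The discrepancy between the units was itself a measurable difference between the lines. Dividing counts by FPKM gives the transcript length that the authors' FPKM values imply, up to a constant for each library, which was removed here with the median over 12008 annotated genes that had at least 50 counts in every library. Relative to its Huh7 P mean, this implied length of TFPI was 1.02, 0.985 and 0.996 in Huh7 P, against 0.856, 0.873 and 0.920 in Huh7 LR. All Huh7 LR values were below all Huh7 P values. The log2 difference of -0.18 was larger in size than that of 97.2% of the genes compared. The other 8 genes differed by 0.04 or less on this scale, although a single library, Huh7 LR replicate 3, gave 0.919 for SERPIND1. Which TFPI transcripts the FPKM values represent was not tested.

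**Figure D2:**
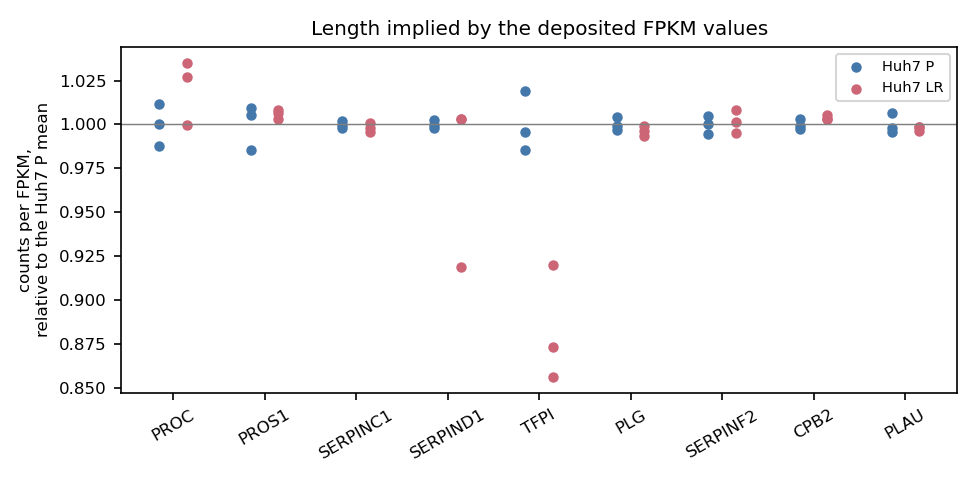
Counts per FPKM of the 9 genes in each library, divided by the gene's Huh7 P mean after removing each library's median (vertical axis, no unit; blue points Huh7 P, red points Huh7 LR, 3 libraries each). TFPI is the gene whose Huh7 LR libraries, at 0.856 to 0.920, all lie well below its Huh7 P libraries, and 1 Huh7 LR library of SERPIND1 lies at 0.919.

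Both ends of plasmin formation, the zymogen and its activator, were higher in Huh7 LR, from low levels. PLG (ENSG00000122194, chromosome 6, 160702238 to 160753315, plus strand), which encodes plasminogen, had 4.86, 6.32 and 6.99 CPM in Huh7 P and 19.4, 13.7 and 17.6 CPM in Huh7 LR. The lowest Huh7 LR library was nearly double the highest Huh7 P library. The log2FC was 1.48 (SE 0.16, adjusted p = 3.34e-05), from a mean of 6.06 ± 1.09 to 16.9 ± 2.90 CPM (SD, n = 3). Reads of PLG may have been divided among its near-identical relatives. PLGLB1 had 52 to 78 counts in Huh7 P and 76 to 112 in Huh7 LR, PLGLB2 had 17 to 31 and 36 to 69, and LPA had 0 to 7 counts in any library, against 349 to 457 and 962 to 1265 counts of PLG. With these genes summed into PLG the log2FC was 1.36 (adjusted p = 3.49e-05).

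PLAU (ENSG00000122861, chromosome 10, 73909177 to 73917497, plus strand), which encodes the plasminogen activator urokinase, had 2.63, 3.23 and 3.43 CPM in Huh7 P and 9.01, 9.79 and 10.1 CPM in Huh7 LR. Its replicates were tight and the lines far apart. The means were 3.09 ± 0.412 and 9.62 ± 0.552 CPM (SD, n = 3), and the log2FC of 1.64 (SE 0.14, adjusted p = 5.52e-06) was the highest of the 9 genes. C10orf55, on the opposite strand, shares 916 of the 2950 exon bases of PLAU and had 4 to 16 counts in Huh7 P and 13 to 44 in Huh7 LR, against 189 to 224 and 587 to 687 counts of PLAU. Whether counting used strand is not given in the sources used here, and with both genes summed the log2FC was 1.64 as before. Fibroblasts and endothelial cells also make urokinase, and some of their markers moved the same way. Of 6 fibroblast markers, DCN had no count, COL1A2, COL3A1 and LUM had at most 17 counts in any library, and COL1A1 and PDGFRB were higher. Their summed level was 2.16 to 2.28 CPM in Huh7 P and 5.02 to 8.02 CPM in Huh7 LR. Of 6 endothelial markers, CDH5, KDR and TEK had no count, and CLDN5 did not pass (log2FC 0.34, adjusted p = 0.473). PECAM1 and VWF were higher, but VWF had few counts, 0 to 8 per library in Huh7 P and 19 to 26 in Huh7 LR. The endothelial sum, nearly all of it PECAM1, was 39.2 to 47.9 CPM in Huh7 P and 65.7 to 71.7 CPM in Huh7 LR. Of 6 leukocyte markers, TYROBP and HLA-DRA had no count, only CD14 had enough counts to test and did not pass (log2FC 0.53, adjusted p = 0.0708), and the sum was 1.90 to 2.22 and 2.10 to 4.03 CPM. Their part in the level of PLAU was not tested.

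The inhibitors of fibrinolysis went in opposite directions. SERPINF2 (ENSG00000167711, chromosome 17, 1742836 to 1755268, plus strand), which encodes α2-antiplasmin, the fast inhibitor of plasmin, had 181, 181 and 175 CPM in Huh7 P and 264, 349 and 351 CPM in Huh7 LR. The Huh7 P libraries were nearly equal, and Huh7 LR replicate 1 was well below the other two while still above all of Huh7 P. The log2FC was 0.84 (SE 0.10, adjusted p = 7.29e-05), under 2-fold. CPB2 (ENSG00000080618, chromosome 13, 46053195 to 46105033, minus strand), which encodes the thrombin-activatable fibrinolysis inhibitor, a carboxypeptidase that removes plasminogen binding sites from fibrin, had 18.0, 18.2 and 20.9 CPM in Huh7 P and 10.4, 10.8 and 11.5 CPM in Huh7 LR. No Huh7 LR library came near the Huh7 P range. Its log2FC was -0.80 (SE 0.10, adjusted p = 7.09e-05), the most negative of the 9 and also under 2-fold.

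**Figure D3:**
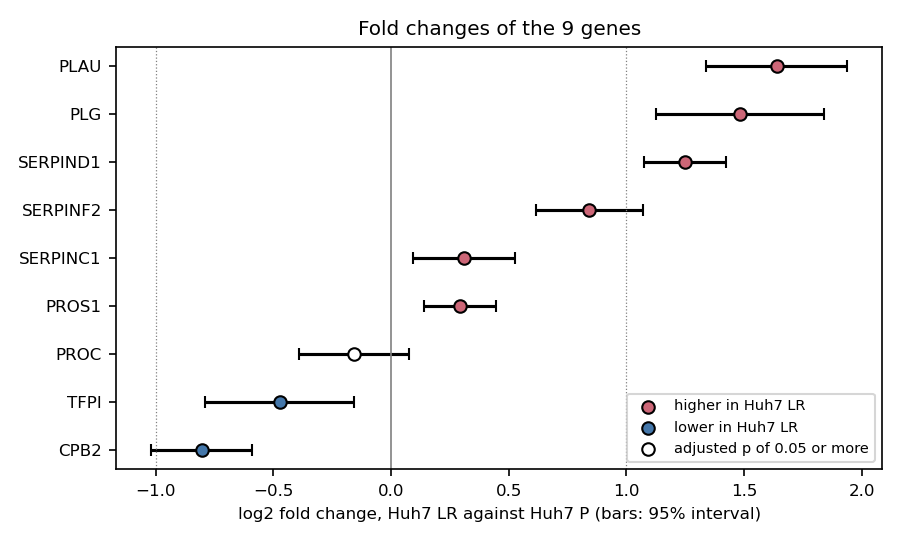
Log2FC of Huh7 LR against Huh7 P (horizontal axis) for the 9 genes, from edgeR's quasi-likelihood test; bars are 95% intervals and dotted lines mark 2-fold. PLAU, PLG and SERPIND1 have intervals wholly above 1 (the lowest bound is 1.08), the interval of PROC crosses 0, and those of TFPI and CPB2 lie below 0.

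Sequences before RefSeq starts of PLG, PLAU and CPB2 are shown because these genes had the largest changes in either direction among those whose RefSeq promoter window is mostly free of annotated exons. RefSeq (GRCh38.p14) gave 10 windows for 7 of the 9 genes, all but SERPINC1 and SERPINF2. Each sequence reads 5′ to 3′ in the direction of the gene, covers the part of the 250 bases before a RefSeq start that GENCODE release 29 does not annotate as exon, and has matches to any of the 7 motifs searched in capitals. They lie at chr6:160701994-160702237 (plus strand), chr10:73910882-73911103 (plus strand) and chr13:46105034-46105283 (minus strand). The PLAU stretch precedes a RefSeq start that lies inside the gene as GENCODE bounds it, since other annotated PLAU transcripts begin farther upstream.
PLG: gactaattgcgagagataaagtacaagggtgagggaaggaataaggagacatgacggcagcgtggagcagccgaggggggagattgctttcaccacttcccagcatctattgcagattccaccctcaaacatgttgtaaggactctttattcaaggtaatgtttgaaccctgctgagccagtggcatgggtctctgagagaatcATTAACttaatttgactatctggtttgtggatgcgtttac
PLAU: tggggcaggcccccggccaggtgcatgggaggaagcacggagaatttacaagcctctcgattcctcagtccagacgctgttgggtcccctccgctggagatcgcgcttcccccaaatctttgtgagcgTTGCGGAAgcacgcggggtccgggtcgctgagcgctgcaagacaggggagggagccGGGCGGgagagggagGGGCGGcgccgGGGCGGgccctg
CPB2: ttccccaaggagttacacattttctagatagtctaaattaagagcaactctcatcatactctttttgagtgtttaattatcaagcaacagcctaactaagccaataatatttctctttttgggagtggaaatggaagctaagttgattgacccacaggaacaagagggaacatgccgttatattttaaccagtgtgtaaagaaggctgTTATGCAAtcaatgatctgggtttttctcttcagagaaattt
The 7 motifs were searched on both strands over the 250 bases before each start. HNF1, HNF4, FOXA and C/EBP are liver-enriched transcription factors, and AP-1 and Sp1 act in most cell types. For HNF1 the letters were GTTAAT, part of its longer site. The HNF4 search used CAAAGTCCA, and that of C/EBP used TTGCNNAA. A FOXA match required TGTTTAC, and one of AP-1 required TGANTCA. Sp1 was read as GGGCGG, and the TATA box as TATAAA. The capitals in PLG are the HNF1 letters on the opposite strand, 46 to 41 bases before the start, which 6.23% of 35116 promoters hold. In PLAU they are, in order, a C/EBP match and 3 Sp1 matches, and in CPB2 a C/EBP match on the opposite strand. The C/EBP letters occur in 9.05% of all promoters and the Sp1 letters in 42.6%. Of the other windows, a second one of PROC held a C/EBP match, that of PROS1 a FOXA and 2 Sp1 matches, and those of TFPI and SERPIND1, the first of PROC and the other windows of PLG and PLAU none. None of the 10 windows held the HNF4, AP-1 or TATA letters, which 0.325%, 6.57% and 10.7% of promoters hold, while 2.98% hold the FOXA letters. A match describes letters only.

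When levels were compared between genes, which requires the length-scaled FPKM values, the 9 genes spanned a wide range in both lines. In Huh7 P the order by mean FPKM was PROS1 (75.2 to 81.6), SERPINF2 (70.6 to 74.5), TFPI (33.0 to 36.7), PROC (20.7 to 22.3), CPB2 (9.83 to 11.2), SERPINC1 (8.93 to 10.3), SERPIND1 (9.57 to 9.85), PLG (1.64 to 2.32) and PLAU (1.04 to 1.34). The ranges of CPB2, SERPINC1 and SERPIND1 overlapped, and no other neighbours in this order did. In Huh7 LR, SERPINF2 (111 to 146) came before PROS1 (95.7 to 103), TFPI (22.5 to 38.3) and SERPIND1 (22.0 to 28.0) overlapped, and PROC (16.2 to 21.7) and SERPINC1 (11.4 to 13.5) followed. CPB2 (5.79 to 6.31) and PLG (4.66 to 6.69) overlapped there, and PLAU (3.65 to 4.04) was again lowest. PROS1 and SERPINF2 stood above 96.4% and 96.0% of annotated genes in Huh7 P, whereas PLG and PLAU stood above 49.5% and 45.8%.

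The balance of enzyme and inhibitor was compared as FPKM ratios. The ratio of PLG to SERPINF2 was 0.0221, 0.0286 and 0.0328 in Huh7 P, against 0.0602, 0.0327 and 0.0415 in Huh7 LR. One Huh7 LR library lay within the Huh7 P range, and the log2 means differed by 0.66 (two-sided exact permutation test, p = 0.2; a design of this size cannot go below 0.1, so no outcome could have passed 0.05). The difference was 0.42 without Huh7 LR replicate 1 and 0.86 without Huh7 LR replicate 2. In every library the inhibitor exceeded the zymogen by this measure, by 16.6-fold or more.

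**Figure D4:**
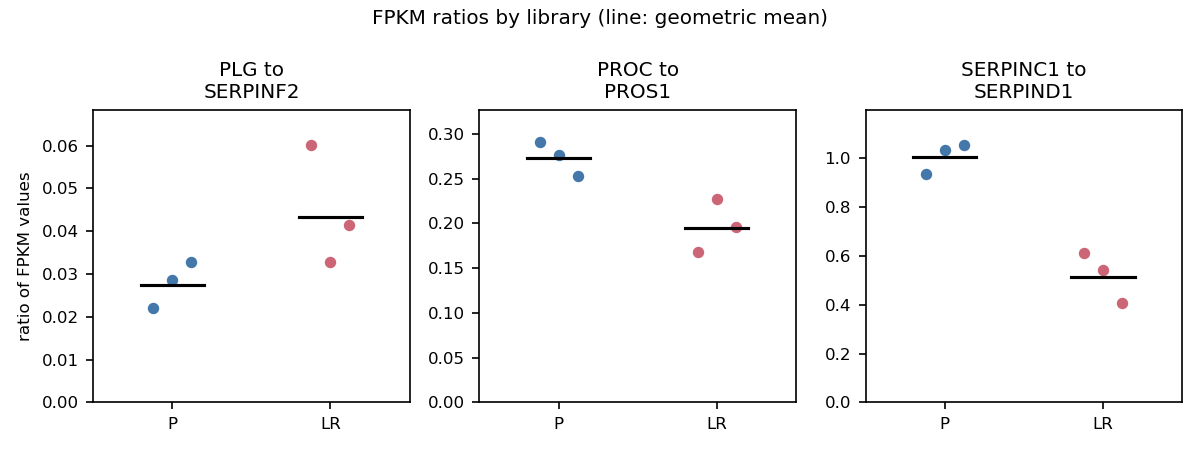
FPKM ratios of 3 gene pairs in each Huh7 P and Huh7 LR library (vertical axes from 0, no unit; points are libraries, lines are geometric means). SERPINC1 to SERPIND1 falls from at least 0.933 in Huh7 P to at most 0.612 in Huh7 LR, whereas PLG to SERPINF2 overlaps between the lines.

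Other genes of the same pathways, in 6 lists of 43 genes, were examined in the same fit. After the filter on low counts 38 remained, of which 18 were higher, 4 were lower and 16 did not pass, against the 23.3% and 22.4% of everything tested that were higher and lower. Their median log2FC was 0.28. Past 2-fold, 8 were higher and 1 lower, against 4.43% and 1.78% of everything tested. THBD, which encodes thrombomodulin, and SERPINB2, which encodes PAI-2, had no count in any library, and HRG, GAS6 and LPA had at most 26 counts. Among the partners and other inhibitors of the anticoagulant proteins, 7 of 11 were higher, 1 was lower and 3 did not pass. C4BPA and C4BPB, whose product C4b-binding protein carries protein S in plasma, had log2FCs of 1.03 (adjusted p = 2.46e-05) and 1.11 (6.54e-05), past 2-fold, beside 0.29 for PROS1 itself. C4BPA was higher but under 2-fold without Huh7 P replicate 1 (0.99), without Huh7 LR replicate 1 (0.94) and with limma-trend on log2(FPKM + 1) (0.91). APOH (1.46), which encodes β2-glycoprotein I, and SERPINE2 (1.11), a cell-associated inhibitor of thrombin and urokinase, were also higher past 2-fold (SERPINE2 at 0.92, under 2-fold, in that limma-trend fit), and A2M (0.88), a broad protease trap, was higher. SERPINA5 (0.43), which encodes the protein C inhibitor, and PROZ (0.60) were higher, whereas SERPINA10 (-0.48), whose product needs protein Z as its cofactor, was lower. PROCR, the gene of the endothelial protein C receptor, had 15 to 34 counts per library and did not pass. TYRO3 (-0.02) and MERTK (0.20), receptors of protein S, and AXL (-0.18), a receptor of its paralogue GAS6, did not pass.

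In the list of plasminogen activation, 5 of 10 genes were higher, 1 was lower and 4 did not pass, beside shares of 23.3% higher and 22.4% lower over everything tested. PLAUR, which encodes the cell surface receptor of urokinase, had 2.12, 2.67 and 2.43 CPM in Huh7 P and 1.01, 0.814 and 1.06 CPM in Huh7 LR. Its libraries did not overlap, and it was lower past 2-fold (log2FC -1.32, SE 0.20, adjusted p = 3.26e-04), whereas its ligand PLAU was higher. In 5 of the 6 fits with a library left out, all but that without Huh7 LR replicate 1, PLAUR was still lower but not past 2-fold (adjusted p between 0.00111 and 0.0026), and with limma-trend on log2(FPKM + 1) its log2FC was -0.64. PLAT, the gene of tissue plasminogen activator, had 9 to 23 counts per library and did not pass. The 5 higher genes were KNG1, F12, KLKB1, F11 and HABP2. KNG1, which encodes kininogen, had a log2FC of 2.40 (adjusted p = 3.43e-08), F12 of 1.56 (5.14e-07), KLKB1 of 1.44 (0.00853, from 23 to 112 counts per library) and F11 of 0.85 (0.00155). HABP2, a protease that activates urokinase, was higher past 2-fold (1.40, adjusted p = 3.42e-04). When any 1 Huh7 P library or Huh7 LR replicate 3 was left out, HABP2 was still higher but not past 2-fold (adjusted p between 0.00167 and 0.0032). SERPING1, the gene of the C1 inhibitor, did not pass (-0.20).

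Of the plasminogen receptors and clearance genes, LRP1 was higher (0.46), PLGRKT lower (-0.44), and ANXA2 (0.20) and S100A10 (-0.17) did not pass. In the list of the vitamin K cycle, which both protein C and protein S require for their carboxylation, and of propeptide processing, GGCX (0.33) and VKORC1 (0.24) were higher, VKORC1L1 (-0.25) was lower, and the propeptide protease gene FURIN (-0.03) did not pass. Among genes of heparan sulfate, the cell surface glycan that speeds antithrombin and heparin cofactor II, HS3ST1 (1.03), SDC4 (0.70) and GPC3 (1.20) were higher, GPC3 past 2-fold, and HS3ST3A1, HS3ST3B1 and SDC1 did not pass. PLGRKT, VKORC1 and VKORC1L1 lost their call without at least 2 of the 6 libraries, taken singly (Huh7 P replicate 2 and Huh7 LR replicate 3 for all of them, and Huh7 P replicate 1 for both VKORC1 genes), with adjusted p values of 0.0553 to 0.0945.

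**Figure D5:**
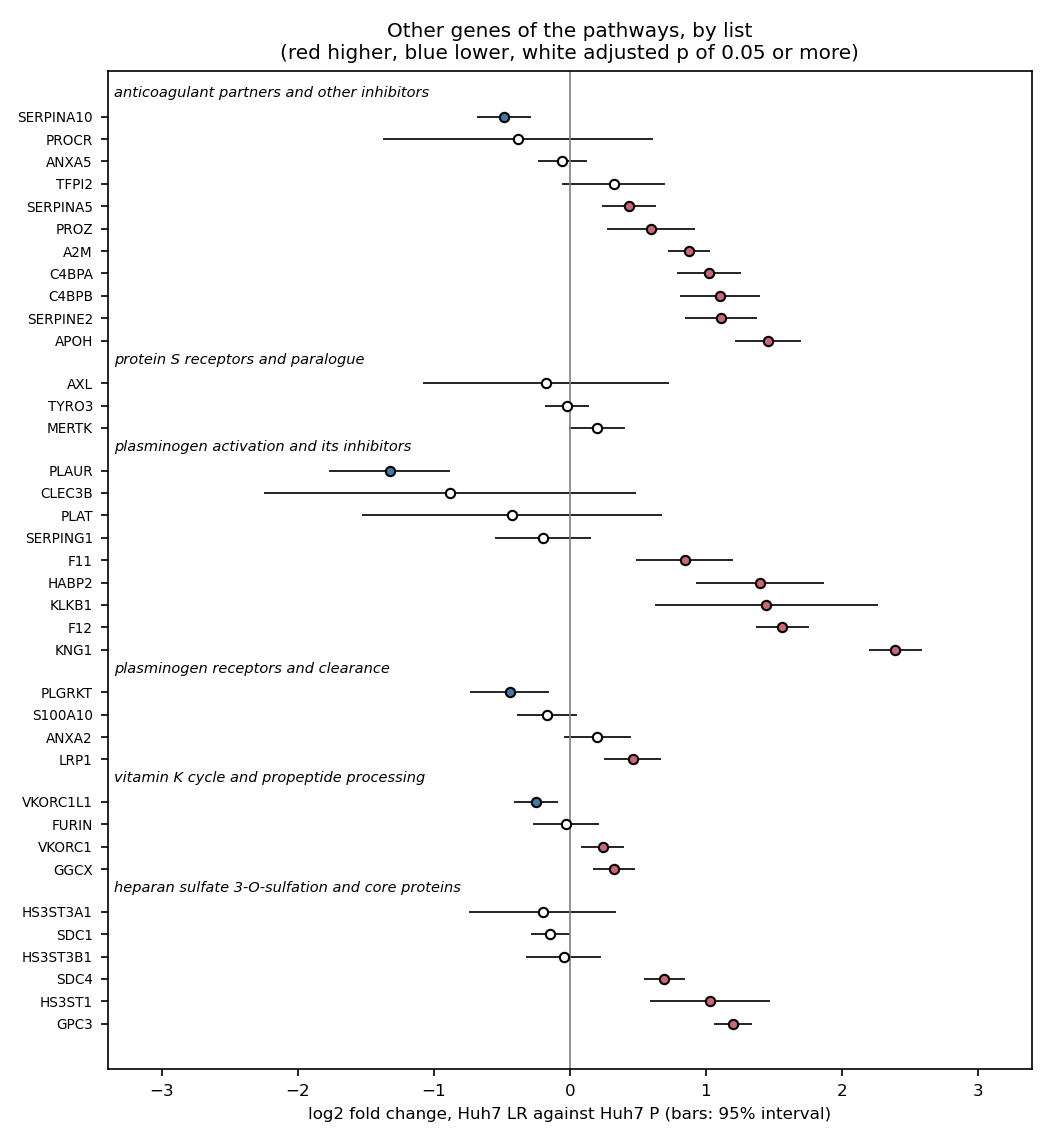
Log2FC of Huh7 LR against Huh7 P (horizontal axis) for 37 of the 38 other genes of the pathways with enough counts to test, grouped by list; bars are 95% intervals from edgeR's quasi-likelihood test, red points passed as higher, blue as lower, and white did not pass. KNG1 lies farthest to the right at 2.40 and PLAUR farthest to the left at -1.32.

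The pattern over the 6 libraries was compared with that of all annotated genes of at least 10 CPM. By Pearson's r of log2 CPM, the gene most like SERPIND1 was PARD3B (r = 0.9995), that most like PLG was ALB (0.997), and that most like PLAU was the fibrinogen chain gene FGG (0.9996). Since the libraries form 2 clusters, such values are common, and between 505 and 988 genes had an r above 0.95 with each of the 3. They are given as a description of these 6 libraries, with no test.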

How the data were processed

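RNA from 3 Huh7 P and 3 Huh7 LR samples was sequenced after poly(A) selection. The submitters' processing notes name TopHat2, Cufflinks and DESeq and the mouse build mm10, although the table lists human genes, and the labels describe extraction from an insect. The build used for alignment therefore remains unsettled, and the annotation and the strand setting are not given in the sources used here. The authors deposited 1 table holding a raw read count and an FPKM value, scaled by the authors for length and depth, for each of 26184 genes and loci and each library, with 34 further lines that name no gene. All 19974 annotated identifiers are in GENCODE release 29 (GRCh38), from which coordinates were taken.

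The counts were fitted with edgeR 4.0.16 (R 4.3.3). Low genes were removed by filterByExpr, with its minimum count of 10 and minimum total of 15, libraries were scaled by TMM, and the quasi-likelihood test was run over all genes and loci. Intervals are 95%. Ratios of 4 gene pairs were compared by a two-sided exact permutation test, with adjustment over all 4. One further pathway gene, which did not pass, and the ratio that uses it are counted but not reported here. Alternative settings used size factors from DESeq2 1.42.0, its Wald test, no low-count filter, a floor of 10 counts in all libraries, the replicate number as a block, 1 library omitted at a time, sums of overlapping genes, or annotated genes alone. The FPKM values, where 3 libraries reached 0.5, were fitted by limma-trend (limma 3.58.1) with a pseudocount of 0.1 or 1 before the log2. The methods were tested on simulated data. The 9 genes and the lists were chosen with earlier results of these data known. All 9 are named, with genes of the lists that passed and others by value; the most similar gene was named for those past 2-fold. Figures were drawn with matplotlib 3.10.9.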

Additional observations from a re-analysis of the deposited data

How the results depend on the processing

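For the 9 genes, 126 of 135 values under other settings had the same sign and the same call, and 0 reversed. PROS1, SERPIND1, PLG, SERPINF2, CPB2 and PLAU did so in all 15 settings. TFPI gave log2 fold changes (log2FC) of -0.29 and -0.28 (adjusted p = 0.159 and 0.157) in the limma-trend fits of FPKM with pseudocounts of 0.1 and 1, so that 1 of the 9 genes was lower there in place of 2. With each library left out in turn, the log2FC was -0.66 to -0.30 for TFPI, 0.24 to 0.37 for SERPINC1 and -0.26 to -0.042 for PROC. The number of the 9 genes called lower was 1 to 3 and called higher 5 to 6 in these fits, and the number of other pathway genes called lower was 2 to 5. In the fit with a pseudocount of 1, 268 genes were higher and 84 lower past 2-fold, and with a pseudocount of 0.1, 589 and 212. The main fit of counts, which had another filter on low genes, gave 776 and 312. The causes were not tested. All 28 values of the 4 ratios had the same direction. Of 326 values of the 22 other pathway genes that passed, computed after the data were seen, 318 did the same and 8 no longer passed.

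Same-numbered replicates of the lines deviated together only weakly (correlations of 0.0572, 0.0668 and 0.0254 across genes), and the study states no pairing. Each library nevertheless correlated best with its own number, a hint from the data and not from the design. Whether the numbers pair the samples therefore remains undecided. The replicate block changed no call of the 9 genes (TFPI had a log2FC of -0.50, adjusted p = 0.00129, and PROC -0.17, adjusted p = 0.158), and gave 783 higher and 316 lower calls past 2-fold. The lowest count of the 9 genes in a library was 189, and the effect of depth on the calls was not tested.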
